A study of Mus musculus with 48 samples.

Results

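The libraries described here hold RNA of the membrane fraction of E14TG2a cells after 30 and 120 min in the transcription inhibitor flavopiridol, with 3 libraries at each time and 6 of the 48 libraries of the series. Genes listed in all 6 libraries were kept, which gave 13538 of the 23862 genes listed in at least 1 library of the series, and each was described by its log2 ratio at 120 min minus its log2 ratio at 30 min. E14TG2a is an established line of mouse embryonic stem cells (mESCs). Both groups were the same unmodified line, grown on gelatin in 2i + LIF medium (the inhibitors CHIR99021 and PD0325901 with leukemia inhibitory factor), which keeps mESCs in the naive pluripotent state, and both received flavopiridol at 1 µM. The study took total, nucleus, cytosol and membrane RNA from independently passaged cultures at 30, 60, 120 and 240 min of the block, to follow the loss of RNA from each compartment. Cytosol was released with digitonin and the membrane fraction then with NP-40, so that the membrane fraction is what the second detergent dissolved, endoplasmic reticulum (ER) and mitochondria included, and not purified ER. Cycloheximide, which holds ribosomes on mRNA, was present in the lysis buffers of all groups.

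Flavopiridol inhibits CDK9, the kinase that releases RNA polymerase II into elongation. After its addition an mRNA is lost as it is destroyed or leaves the compartment, while mRNA made before the block can still arrive from the nucleus. The study reports long nuclear retention of many mature mRNAs and treats flavopiridol-derived rates as aggregated turnover, not as passage between compartments. A change described here is the net of arrival and loss, which were not separated. mRNAs for secreted, membrane and lysosomal proteins are brought to the ER by the nascent signal peptide or transmembrane segment and are translated on bound ribosomes, whereas mRNAs for cytosolic and nuclear proteins are translated mainly on free ribosomes. Short-lived mRNAs are known to include those of transcription factors, signalling inhibitors and immediate early genes, and long-lived ones those of metabolic, ribosomal and secretory proteins.

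The deposited values are ratios to the 0 min level of the same fraction, after the authors had scaled each library on genes with long half-lives, and genes at 0 are not listed. Within the membrane fraction the ratios of a gene in different libraries were quotients of whole numbers times 1 constant per library, and these whole numbers, called implied reads here, were recovered for 12405 of the 12408 genes listed in all 12 membrane libraries. They are the smallest whole numbers that give the deposited values, so that the reads of a gene may be a multiple of them, and totals, RPM and the minimum of 20 rest on these smallest numbers. The libraries at 30 and 120 min held 5216421 to 6004190 implied reads in all, with a median of 29 per gene in each library at 30 min and of 23 to 24 at 120 min. The 0 min value cancels in the change from 30 to 120 min, but many genes rest on few reads: 8864 tested genes had a mean of at least 20. Some mRNAs that are usually abundant, such as that of the ER chaperone calnexin (Canx, mean 114), have few implied reads, and why was not tested. Of 7 stem cell markers, 5 were listed in all 6 libraries and the others, Esrrb and Zfp42, in 5. Their summed level was 5036 to 5279 RPM (implied reads scaled to an equal library total) at 30 min and 5251 to 5685 at 120 min. Dppa5a and Pou5f1 led this sum, with means of 13910 and 11310 implied reads at 30 min. A steady sum does not mean steady members: Dppa5a went to 16510 implied reads at 120 min, and Klf4 from 2541 to 216. Of 24 markers of differentiated and feeder cells, 8 were listed in all 6 libraries. Tubb3 and Sox1 led these, with means of 215 and 127 implied reads at 30 min, against 195 for the stem cell marker Nanog. Another 9 were listed in none, among them Gata4, Afp, Col3a1 and Lum. The summed level of the 24 was 71.8 to 88.2 RPM at 30 min and 28.6 to 36.5 at 120 min. In bulk libraries fewer cells of a type and less RNA per cell cannot be told apart.

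Most membrane RNAs were lower at 120 min than at 30 min. The median log2 ratio of the tested genes was -0.10, -0.13 and -0.12 in the 3 libraries at 30 min and -0.67, -0.83 and -0.72 in those at 120 min, with no overlap. The median change was -0.62 on the log2 scale, which is 0.652 of the level at 30 min. By limma's moderated test with Benjamini-Hochberg adjustment over the 13538 genes, 6913 genes fell (51.1%), 265 rose (1.96%) and 6360 passed in neither direction. Of those that fell, 3403 did so by 2-fold or more, 938 by 4-fold or more and 244 by 8-fold or more, whereas 90 of the genes that rose did so by 2-fold or more. Genes not listed in a library were not tested, so the deepest losses can be missing from these counts. Another 265 genes were listed in all 3 libraries at 30 min and in 0 at 120 min, and 28 the other way. The test called 66.0% of genes with at least 20 implied reads and 28.4% of the others. These counts depend on the scale of each library: with libraries centred on their median gene 2406 genes (17.8%) lay below and 2337 (17.3%) above it, with libraries scaled to the same sum 3036 fell and 1670 rose, and with libraries scaled to the mitochondrially encoded mRNAs 11040 fell and 24 rose. These scalings move every log2 change by 0.62, 0.50 and -0.69, so that a rise of less than 0.69 becomes negative under the last. The offset of a gene list does not depend on the scaling: in each library the list's median log2 ratio minus that of all genes was taken, and the offset is the mean of this gap at 120 min minus its mean at 30 min, which can differ from the median of the members' changes. Counts of list members that fell or rose stand beside 51.1% and 1.96% over all tested genes.

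**Figure D1:**
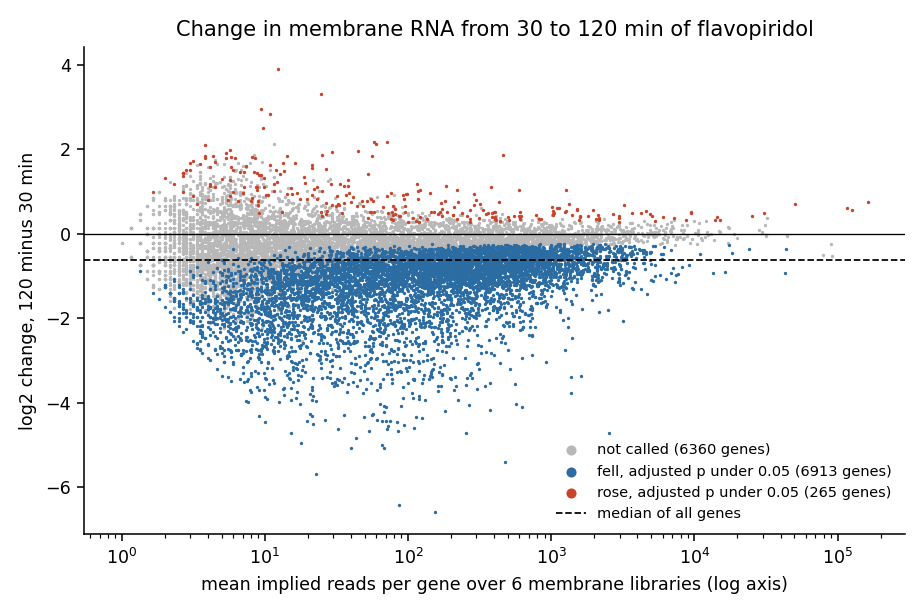
Each point is 1 of the tested genes, with its mean implied reads over 6 membrane libraries on a log axis and its log2 change from 30 to 120 min on the vertical axis. The 6913 genes that fell and the 265 that rose are coloured, the dashed line is the median of all genes at -0.62, and the spread of the genes that were not called widens towards low reads.

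Among called genes with non-overlapping groups listed in all 48 libraries, with predicted and clone-named genes left out, Klf3 and Fgf4 fell most. Klf3, a transcriptional repressor of the Krüppel-like family, had ratios of 0.522, 0.575 and 0.549 at 30 min and of 0.023, 0.0218 and 0.0179 at 120 min. Fgf4, the secreted growth factor that drives ERK signalling in mESCs, had ratios of 0.559, 0.608 and 0.683 at 30 min and of 0.0243, 0.0211 and 0.0249 at 120 min. The groups were far apart in both genes, with log2 changes of -4.72 ± 0.21 and -4.72 ± 0.20 (± SE) and an adjusted p of 0.000712 in each. Fgf4 is the better measured of them, with a mean of 4891 implied reads at 30 min and 214 at 120 min.

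The other falls named by the rule were in Nfkbia, the inhibitor that holds NF-κB in the cytoplasm (-4.62 ± 0.40, log2 change ± SE), Arl4d, a small GTPase (-4.45 ± 0.65), the zinc finger genes Zfp105 (-4.44 ± 0.36) and Zfp235 (-4.40 ± 0.67), Birc5, the mitotic protein survivin (-4.43 ± 0.31), the ubiquitin ligase Trim11 (-4.37 ± 0.24), the zinc finger gene Zfp296 (-4.35 ± 0.20), the AP-1 subunit Junb (-4.30 ± 0.42), the pseudokinase Trib1 (-4.29 ± 0.22) and Ddias, an apoptosis suppressor (-4.17 ± 0.29). Their adjusted p-values lay between 0.000712 and 0.00331. Groups that do not overlap were a condition of the rule for these 12 genes. Counting error is wide for several: Zfp235, Junb, Trib1, Nfkbia and Zfp105 had means of 3.33 to 7.0 implied reads at 120 min.

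Among the largest rises, few rested on many reads. Usp15, a deubiquitinase, had ratios of 0.647, 0.601 and 0.73 at 30 min and of 3.17, 2.4 and 3.38 at 120 min. Trps1, a GATA-type repressor, had ratios of 0.624, 0.717 and 0.636 at 30 min and of 2.24, 2.18 and 2.75 at 120 min. Both were picked by the same rule, from genes whose groups do not overlap. They rose by 2.17 (SE 0.17, adjusted p = 0.000741) and 1.85 (SE 0.13, adjusted p = 0.000712) from means of 18.7 and 179 implied reads at 30 min. Setbp1, a SET-binding protein, rose by 1.93 (SE 0.28) from a mean of 11 reads, and Tcf12, an E protein, by 1.62 (SE 0.48) from 10.3.

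The other rises named by the rule started from fewer reads. Taf1, the largest subunit of TFIID, went from a mean of 2.0 to 16.7 implied reads and Mtus1, a microtubule-associated protein, from 2.33 to 17, too few for a fold. The microtubule protein Clasp1 (1.67 ± 0.44) and the lipoxygenase Alox8 (1.80 ± 0.43) started from 6.0 and 3.67. At 240 min, which the comparison did not use, Usp15 and Trps1 were at 1.4 ± 0.236 and 1.48 ± 0.108 (mean ± SD, n = 3), below their values at 120 min, and Setbp1 was at 6.51 ± 0.808, above them. Cux1, a homeodomain repressor named after its values were seen, was at 0.517 ± 0.0608 at 30 min, 1.26 ± 0.234 at 120 min and 2.85 ± 0.357 at 240 min.

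**Figure D2:**
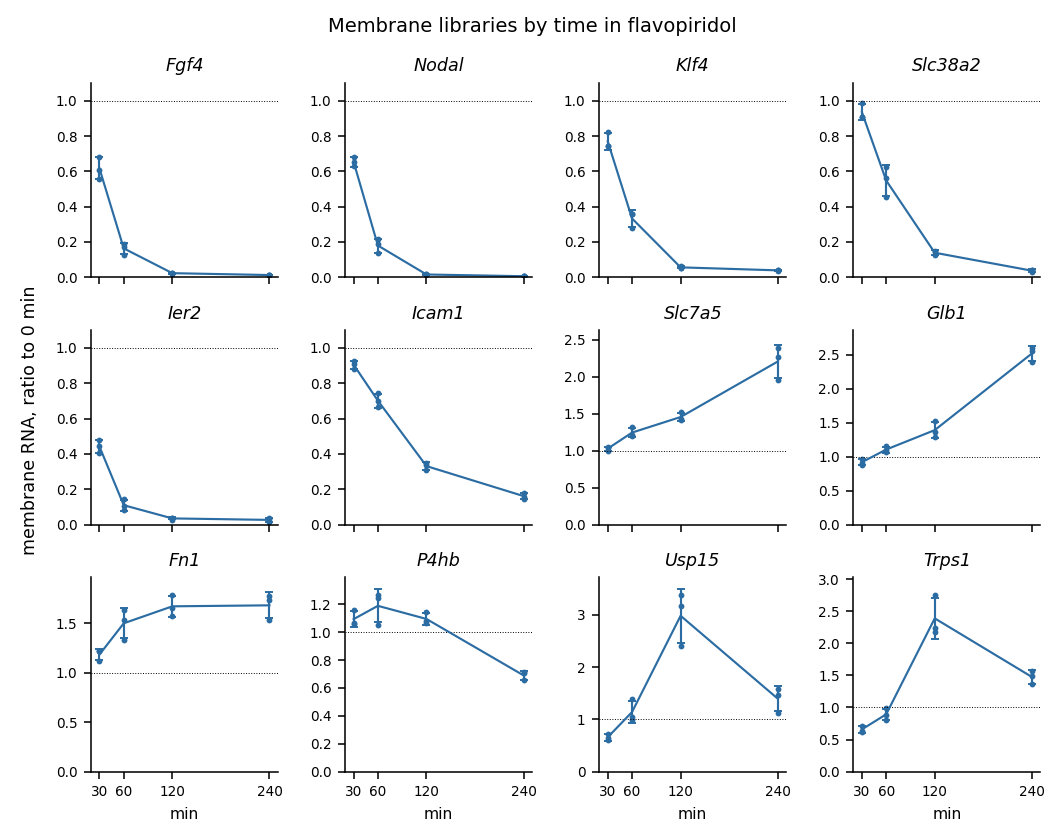
Membrane RNA of 12 genes, as the ratio to 0 min on the vertical axis, against minutes in flavopiridol. Points are single libraries, lines join means and bars are SD over 3 libraries, and the dotted line marks a ratio of 1. Fgf4, Nodal, Klf4, Slc38a2, Ier2 and Icam1 fell from 30 to 120 min, Slc7a5, Glb1 and Fn1 rose, P4hb passed in neither direction, and Usp15 and Trps1 were highest at 120 min.

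The libraries at 60 and 240 min give a view of the same genes that the comparison did not use. From 60 to 240 min the median change was -1.11 over 6520 of the genes that fell, 0.28 over 250 of those that rose and -0.27 over 5638 that passed in neither direction, against -0.68 over all 12408 genes listed in the 12 membrane libraries. The mean at 240 min was below that at 60 min in 94.5% of the first group, 24.4% of the second and 67.1% of the third, and in 80.6% of all. The median log2 ratio of the genes that rose was 0.29, 0.20 and 0.26 in the libraries at 60 min and 0.53, 0.57 and 0.54 in those at 240 min, which do not overlap. The span from 60 to 240 min contains part of the one compared, so a rise over it need not be a further rise. Of 139 protein-coding genes with at least 20 implied reads that rose, 69 were lower at 240 than at 120 min, against 5817 of all 7542.

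Most genes of the machinery of the ER lay above the median gene. Of 36 tested genes of the translocon and signal recognition list 15 fell and none rose, with a median of -0.22 and an offset of 0.35. Srp68, a subunit of the signal recognition particle, went from 0.813, 1.08 and 0.933 to 0.413, 0.301 and 0.314 (-1.46 ± 0.18, adjusted p = 0.00187), on means of 50.7 and 21.3 implied reads. Of 26 tested ER chaperones and unfolded protein response genes 10 fell and 2 rose, with a median of -0.17 and an offset of 0.54. With libraries centred on their median gene both medians turn positive (0.40 and 0.45).

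The members of that list with the largest falls were Dnajb9, a BiP cochaperone (-2.65 ± 0.23), Atf4, the effector of PERK (-2.40 ± 0.16), and Xbp1, the transcription factor whose mRNA IRE1 splices at the ER (-1.78 ± 0.13). Atf4 was at 0.589, 0.583 and 0.564 at 30 min and at 0.113, 0.108 and 0.107 at 120 min. P4hb, protein disulfide isomerase, was at 1.07, 1.06 and 1.16 and then 1.06, 1.08 and 1.14 (0.00 ± 0.09, adjusted p = 0.988), on a mean of 12110 implied reads at 30 min, and its groups overlapped. Ero1l, which reoxidises it, rose by 0.36 (SE 0.12, adjusted p = 0.0482) and Canx by 0.3 (SE 0.09, adjusted p = 0.038), and both changes are negative under the mitochondrial scaling.

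Genes of N-glycan and GPI-anchor synthesis lay above the median gene, with an offset of 0.29, and those of vesicle coats near it, with an offset of 0.04. Of 35 genes of N-glycan and GPI-anchor synthesis 16 fell and none rose (median -0.35, and 0.27 with libraries centred), with Mgat2, a Golgi N-acetylglucosaminyltransferase, at 0.872, 0.775 and 0.85 and then 0.232, 0.225 and 0.251 (-1.82 ± 0.13, adjusted p = 0.000712). Of 22 COPI and COPII coat genes 14 fell and none rose (median -0.54, and 0.09 with libraries centred), among them Sec23b of the COPII inner coat (-1.12 ± 0.17, adjusted p = 0.00319).

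Of 27 genes of cholesterol synthesis and uptake 19 fell and 1 rose (median -0.57, and 0.05 with libraries centred). Hmgcs1, the cytosolic HMG-CoA synthase, went from 0.74, 0.806 and 0.749 to 0.394, 0.296 and 0.36 (-1.14 ± 0.15, adjusted p = 0.00216). Npc2, which carries cholesterol within the lysosome, went the other way, from 1.05, 1.02 and 1.07 to 1.35, 1.38 and 1.4 (0.40 ± 0.08, adjusted p = 0.0106). Both were picked from called members for the size of their change, so that groups without overlap come in part with the choice. Npc1, the lysosomal membrane partner of Npc2, fell by 0.65 (SE 0.10, adjusted p = 0.00298), close to the median of all genes.

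The cargo of the ER fell into unlike groups. The deepest single falls were in mRNAs for signalling receptors and ligands, although the offsets of these lists from all genes were small (-0.13 each). Few mRNAs for lysosomal and matrix proteins fell. Of 41 cell-surface receptors 29 fell (70.7%) and 1 rose (median -0.74). Over all genes 51.1% fell, and 66.0% of those with at least 20 implied reads were called, a number that all but 1 receptor reached. The Wnt receptors Fzd8 (-4.84 ± 0.71), Fzd10 (-4.10 ± 0.20) and Fzd1 (-3.54 ± 0.42) were lowest. Fzd10 was at 0.785, 0.724 and 0.843 at 30 min and at 0.0528, 0.0398 and 0.0448 at 120 min, on 1179 and 79.7 implied reads, whereas Fzd8 had 4.33 reads at 120 min. Igf2r, the mannose 6-phosphate receptor that sorts lysosomal enzymes, rose from 1.13, 1.07 and 1.12 to 1.53, 1.47 and 1.56 (0.46 ± 0.09, adjusted p = 0.00902).

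Of 33 secreted ligands and inhibitors 20 fell (60.6%) and none rose (median -0.96). Nodal, the TGF-β family ligand, was at 0.651, 0.629 and 0.682 at 30 min and at 0.018, 0.0114 and 0.0184 at 120 min, and fell by 5.39 (SE 0.27, adjusted p = 0.000712). Its extracellular antagonist Lefty1 fell by 2.66 (SE 0.21), from 0.868, 0.952 and 0.993 to 0.184, 0.119 and 0.147. The Wnt antagonist Sfrp1 did not pass the test, at 1.15, 1.08 and 1.19 and then 1.15, 1.07 and 1.22 (0.01 ± 0.10, adjusted p = 0.939). The offsets of the receptor and the ligand list were both -0.13, but with genes listed in all 48 libraries they were 0.03 and 0.11.

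Of 27 lysosomal proteins 3 fell and 8 rose, with a median of 0.07 and an offset of 0.79. Glb1, β-galactosidase, went from 0.907, 0.884 and 0.964 to 1.53, 1.29 and 1.36 (0.60 ± 0.10, adjusted p = 0.00518), and Hexa, the α subunit of hexosaminidase, from 1.05, 0.936 and 1.01 to 1.48, 1.5 and 1.38 (0.54 ± 0.10, adjusted p = 0.00564). At 240 min, which the comparison did not use, these 2 genes were at 2.52 ± 0.11 and 2.69 ± 0.163. With libraries centred on their median gene 21 lysosomal genes lay above it and none below, and under the mitochondrial scaling 13 fell and none rose.

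Of 35 genes of matrix and adhesion 5 fell and 8 rose, with a median of 0.01 and an offset of 0.63. Fn1, fibronectin, went from 1.21, 1.22 and 1.12 to 1.57, 1.66 and 1.78 (0.50 ± 0.11, adjusted p = 0.0135) and Gpc3, a glypican, from 1.07, 1.06 and 1.14 to 1.57, 1.63 and 1.47 (0.51 ± 0.10, adjusted p = 0.00782). Icam1, an adhesion receptor for leukocytes, fell instead, from 0.881, 0.927 and 0.907 to 0.349, 0.308 and 0.336 (-1.45 ± 0.11, adjusted p = 0.000725). Under the mitochondrial scaling 27 of the 35 fell and none rose.

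The larger families of membrane proteins had medians near that of all genes. Of 184 solute carriers 86 fell and 1 rose (median -0.49), and of 150 numbered Tmem genes 75 fell and 2 rose (median -0.60). Slc38a2, the amino acid transporter SNAT2, went from 0.909, 0.908 and 0.988 to 0.144, 0.124 and 0.15 (-2.75 ± 0.15, adjusted p = 0.000712), whereas Slc7a5, the amino acid exchanger LAT1, rose from 1.03, 0.997 and 1.05 to 1.52, 1.43 and 1.41 (0.50 ± 0.09, adjusted p = 0.00572). Slc16a1, the lactate carrier MCT1, did not pass the test (0.01 ± 0.09, adjusted p = 0.916). Tmem185b (-3.42 ± 0.18) and Tmem115, a Golgi protein (-3.05 ± 0.16), had the deepest falls of the Tmem genes.

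**Figure D3:**
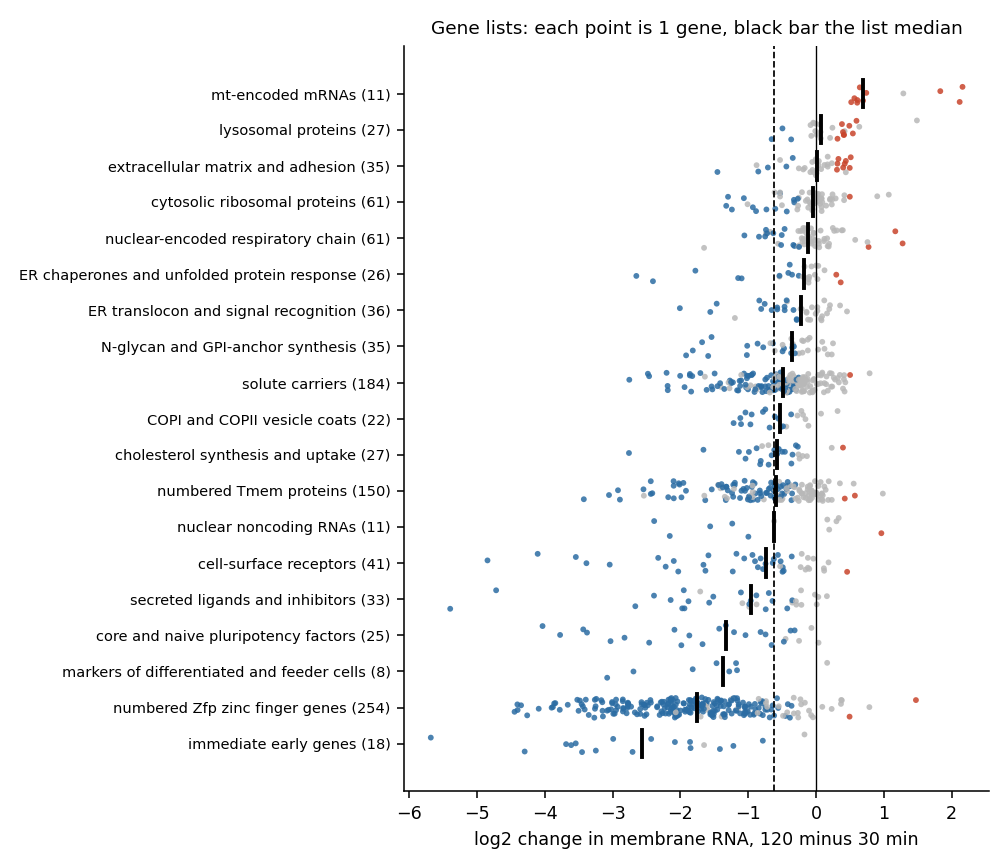
Log2 change from 30 to 120 min for every tested member of 19 gene lists, ordered by the list median (black bar), with the number of tested members in brackets. Blue points fell, red points rose and grey points passed in neither direction, the dashed line is the median of all genes at -0.62, and list medians run from -2.57 for immediate early genes to 0.69 for mt-encoded mRNAs.

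mRNAs for nuclear and cytosolic proteins are also found in the membrane fraction, and the deepest list medians were among them. Of 18 immediate early genes 16 fell and none rose (median -2.57, offset -2.04), and Ier2 went from 0.479, 0.403 and 0.443 to 0.0374, 0.0379 and 0.0283 (-3.69 ± 0.22, adjusted p = 0.000712). Dusp1, a MAP kinase phosphatase, was at 0.321, 0.31 and 0.235 at 30 min, but at 120 min its values of 0.00551, 0.00521 and 0.00604 stood for a mean of 1.0 implied read per library. Srf, the factor that activates many of these genes, did not pass the test, at 0.962, 0.846 and 0.826 and then 0.845, 0.772 and 0.723 (-0.17 ± 0.11, adjusted p = 0.232).

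Of 25 pluripotency factors 21 fell and none rose (median -1.33, offset -0.69). Klf2 went from 0.563, 0.513 and 0.582 to 0.0385, 0.0407 and 0.0245 (-4.03 ± 0.27), Klf4 from 0.825, 0.742 and 0.741 to 0.0623, 0.054 and 0.0527 (-3.77 ± 0.18), and Gbx2 fell by 3.43 (SE 0.53). Dppa5a, an RNA-binding protein of naive cells, did not pass the test, at 0.918, 0.975 and 0.975 and then 0.988, 0.954 and 1.00 (0.04 ± 0.08, adjusted p = 0.715). Of 254 numbered Zfp zinc finger genes 219 fell and 2 rose (median -1.76, offset -1.16), with Zfp51 at -4.40 ± 0.53. The markers of differentiated and feeder cells had 8 tested members, of which 7 fell and none rose (median -1.37, offset -0.84), with the neural factor Sox1 at -3.08 ± 0.26.

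Most mRNAs for ribosomes and the respiratory chain passed in neither direction. Of 61 cytosolic ribosomal protein genes 13 fell and 1 rose (median -0.05, offset 0.52), and of 61 nuclear-encoded genes of the respiratory chain 12 fell and 3 rose (median -0.12, offset 0.52). Rps20 rose from 1.01, 1.02 and 0.973 to 1.34, 1.48 and 1.43 (0.50 ± 0.09, adjusted p = 0.00616), and Rpl18 fell by 1.3 (SE 0.19, adjusted p = 0.00303) on 77 implied reads at 30 min. Ribosomal protein genes have many pseudogene copies, between which reads can be split. Ndufv3, a subunit of complex I, fell by 1.06 (SE 0.14, adjusted p = 0.00206). The medians of both lists turn positive with libraries centred (0.57 and 0.50) or scaled to the same sum (0.45 and 0.38).

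The mRNAs encoded by mitochondrial DNA, which the mitochondrial RNA polymerase makes, had the highest list median. Of 11 tested, 10 rose and none fell (median 0.69, offset 1.31), and under the scaling to these mRNAs themselves 1 rose. mt-Nd1, a subunit of complex I, went from 1.38, 1.28 and 1.25 to 1.96, 1.65 and 1.99 (0.52 ± 0.14, adjusted p = 0.025), the smallest change on the list. mt-Co2, a subunit of complex IV, went from 0.587, 0.144 and 0.394 to 2.49, 1.66 and 0.721 (2.16 ± 0.67, adjusted p = 0.0385), with a wide spread and a mean of 71.3 implied reads against a list median of 25201. Near-identical nuclear copies of mitochondrial DNA make the reads of such genes uncertain.

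Of 11 tested nuclear noncoding RNAs 5 fell and 1 rose (median -0.62). The list was meant as a measure of nuclear RNA in the fraction, but a rough one, since it also holds host genes of small nucleolar RNAs such as Snhg3 and Snhg15. RPM are shares of a library and not on the scale of the ratios. Srp14, at mean ratios of 0.93 and 0.926, went from 615 to 709 implied reads. The summed level of the 17 on the list was 1138 to 1445 RPM at 30 min and 1737 to 1840 at 120 min, groups that did not overlap. Malat1 led this sum, with a mean of 5866 implied reads at 30 min against 737 for Kcnq1ot1, the next, and did not pass the test itself (0.33 ± 0.15, adjusted p = 0.117); it is named here after its values were seen. Neat1, the scaffold of paraspeckles, rose from 1.32, 1.28 and 0.97 to 2.2, 2.13 and 2.6 (0.96 ± 0.19, adjusted p = 0.00801), and Tug1 fell from 0.582, 0.565 and 0.671 to 0.187, 0.201 and 0.229 (-1.56 ± 0.16, adjusted p = 0.0012). The part of nuclear RNA in the membrane values of other genes was not tested.

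To see how the change varied with where an mRNA resides, protein-coding genes with at least 20 implied reads were sorted by their level in membrane over cytosol at 60 min, in RPM, from libraries that the comparison does not use. These libraries lie after the block and between the times compared. A gene that falls faster in membrane than in cytosol by then has a lower ratio, so that the classes are not independent of the change. This ratio was 39.5 at the median for matrix and adhesion genes, 36.5 for ER chaperones, 22.3 for lysosomal and 18.3 for receptor genes, against 0.551 for pluripotency factors, 0.618 for vesicle coats, 0.769 for immediate early genes and 0.760 for ribosomal protein genes. The limits of the classes were chosen after seeing the data.

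Membrane RNA of the transcripts most enriched on membranes had the smallest median fall. The 1167 genes with a ratio over 8 changed by -0.29 at the median, and 522 of them fell (44.7%) and 62 rose (5.31%). The 4694 genes with a ratio under 1 changed by -0.72, and 3586 fell (76.4%) and 23 rose (0.490%). The 3 classes between them changed by -0.49, -0.50 and -0.49, on 1005, 338 and 327 genes with ratios of 1 to 2, 2 to 4 and 4 to 8.

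The median log2 ratio of the class over 8 was 0.07, 0.02 and 0.12 in the libraries at 30 min and -0.19, -0.23 and -0.15 at 120 min, and that of the class under 1 was -0.17, -0.16 and -0.18 and then -0.80, -1.0 and -0.87. The gap between both classes, which does not depend on the scaling, grew from 0.24 ± 0.05 to 0.70 ± 0.09 (mean ± SD, n = 3), with no overlap. An exact permutation test over libraries (two-sided) gave p = 0.1, the smallest that 3 against 3 allows. No gap, however large, could have given less, so this test could not decide whether the gap grew. In the cytosol the same gap was -0.26 ± 0.01 at both times (exact permutation test, p = 0.9), over the 1055 and 4694 genes also listed in the 6 cytosol libraries. In the cytosol both classes changed by -0.46 at the median. The classes were sorted on levels measured after the block, which take in part of the changes in both fractions. Part of the growth in membrane, and of the contrast with cytosol, can therefore come from the sorting. The difference between the fractions in this gap was not tested.

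**Figure D4:**
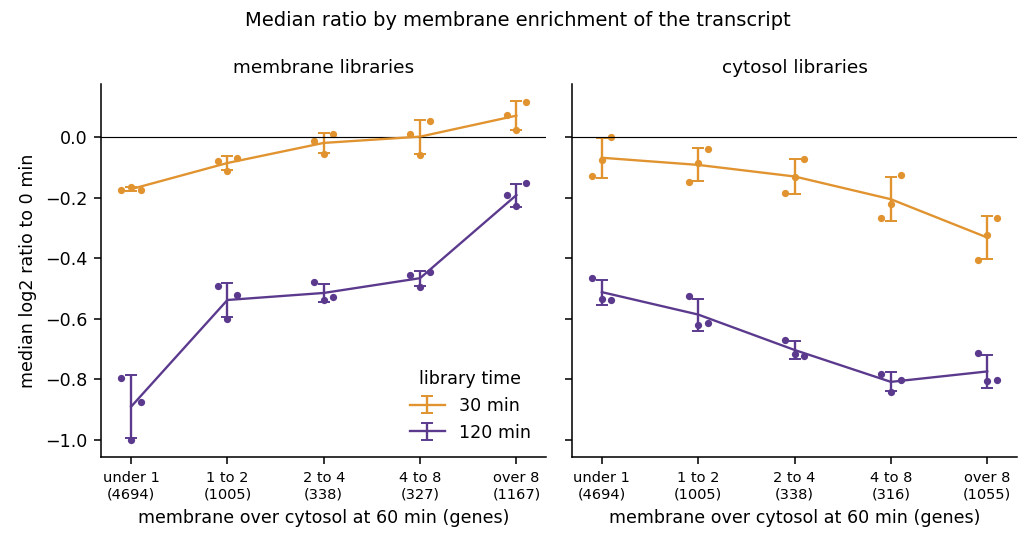
Median log2 ratio to 0 min in each library, for 5 classes of protein-coding genes by membrane over cytosol at 60 min, with genes per class in brackets. Points are libraries and bars are mean and SD over 3 libraries. In the membrane libraries the curve at 120 min rises from -0.89 for the class under 1 to -0.19 for the class over 8, and in the cytosol libraries the gap between these classes is -0.26 at both times.

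Protein-coding genes that rose had long genomic spans and those with deep falls short ones. Among genes with at least 20 implied reads, the median span from start to end of the gene was 24.3 kb over all 7542, 47.6 kb over the 139 that rose, 28.1 kb over the 2402 not called, 22.8 kb over the 5001 that fell and 11.1 kb over the 494 that fell by 4-fold or more. Spans of 100 kb or more made up 30.9% of the genes that rose, 11.4% of all and 1.42% of those with 4-fold falls. Usp15 spans 92.0 kb (chr10:123105006-123196995), Trps1 236 kb (chr15:50654752-50890463) and Cux1 319 kb, whereas Nodal lies within chr10:61417972-61425338 and Klf4 within chr4:55527143-55532466 (GRCm38). Whether the length of the gene has a part in the rises was not tested.

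Motifs in the 3′ untranslated region (UTR) that are known to bind decay factors were counted in 7326 of these genes, in the annotated 3′ UTR of 1 transcript per gene. The AU-rich nonamer TTATTTATT binds proteins such as TTP that recruit deadenylases, TGTANATA binds the Pumilio repressors, and AGCACTT pairs with the seed of miR-290 cluster members, abundant microRNAs of mESCs. The sense strand was searched, and these motifs occur in 7.22%, 23.3% and 15.3% of all 13616 annotated 3′ UTRs of the same kind. The 3 mature microRNAs below share the seed that the third motif matches, shown in capitals (RefSeq, GRCm38.p6, chromosome 7, plus strand):
miR-291a-3p: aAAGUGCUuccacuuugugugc
miR-294-3p: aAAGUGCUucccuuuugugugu
miR-295-3p: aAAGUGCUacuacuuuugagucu

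The following sites, with the motif in capitals and 10 bases on each side, lie in the 3′ UTR of genes with large changes (GRCm38, 5′ to 3′ on the strand of the gene). Genes that rose carry the 3 motifs too. Taf1 has 3 Pumilio motifs and 3 seed matches, Usp15 1 nonamer and 3 Pumilio motifs, and Trps1 1 of each motif. Of these Trps1 is shown, for the same nonamer as in genes that fell:
Nfkbia, AU-rich nonamer, chr12:55489608-55489636, minus strand: ggaccacgttTTATTTATTgtgcttttga
Dusp1, AU-rich nonamer, chr17:26506159-26506187, minus strand: gagctggtccTTATTTATTtaacaccccc
Trps1, AU-rich nonamer, chr15:50659663-50659691, minus strand: cctgctgtatTTATTTATTttcttttggt
Klf2, Pumilio motif, chr8:72321228-72321255, plus strand: tttataatatTGTATATAagactatgac
Slc38a2, Pumilio motif, chr15:96687871-96687898, minus strand: tatgataaacTGTACATAtattgtccat
Fgf4, seed match, chr7:144862983-144863009, plus strand: cctcaggaggAGCACTTtctctcgatg
Lefty1, seed match, chr1:180938203-180938229, plus strand: ctgtatgcgaAGCACTTacatgtatag

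Genes with more copies of each motif had lower medians, by small amounts. For the nonamer the median change was -0.61 with no copy (6765 genes), -0.67 with 1 (443) and -0.78 with 2 or more (118). For the Pumilio motif it was -0.59 (5409), -0.69 (1338) and -0.75 (579), and for the seed match -0.61 (6055), -0.69 (1015) and -0.82 (256). Longer UTRs hold more copies, and within UTRs of 1500 bases or more the order was alike, with -0.63, -0.66 and -0.72 for the nonamer, -0.60, -0.66 and -0.76 for the Pumilio motif and -0.62, -0.66 and -0.81 for the seed match. In UTRs of 500 to under 1500 bases the Pumilio order broke between 1 copy (-0.71) and 2 or more (-0.68). These steps are small beside the range of the genes, whose 25th and 75th percentiles were -1.10 and -0.21 over all tested genes.

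The change in membrane was then set against that in cytosol, with an interaction term in limma over 12 libraries and the 12074 genes listed in all of them. The median change over these genes was -0.62 in membrane and -0.50 in cytosol. Of them 619 fell more in membrane (5.13%) and 218 fell less (1.81%). These calls rest on the design, since the protocol splits each culture into fractions. With libraries of the same number and time as a block, as holds if the number marks the culture, limma called 0 genes that fell more and 1 that fell less. At an unadjusted p under 0.05 that fit gave 1887 and 911 genes, and the fit without the block 1901 and 891. Without replicate 2 of the membrane libraries at 30 min, 38 and 23 genes were called. The differences and adjusted p-values below are those of the fit without the block, and no gene named below passed with it.

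Among genes with a ratio under 1 at 60 min, 475 of 4694 fell more in membrane and 41 fell less, and among those with a ratio over 8 these were 38 and 65 of 1055. The ratio at 60 min takes in part of the same changes. Of the lists, COPI and COPII coats had 7 of 22 genes that fell more in membrane (median change -0.54 there and -0.17 in cytosol), and lysosomal proteins had 4 of 23 that fell less and none that fell more. Hmgcs1 fell by 1.14 in membrane and differed from cytosol by -0.85.

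Genes that fell more in membrane included enzymes of membranes. Of those given here, Abhd2, Mgat5, Cers6 and Slc4a7 were named after their values were seen. Abhd2, a lipid hydrolase, went in membrane from 0.979, 0.908 and 0.945 to 0.579, 0.557 and 0.60 and in cytosol from 0.601, 0.749 and 0.741 to 1.18, 1.29 and 1.35. It fell in one fraction while its cytosolic ratio was higher at 120 min in every library (difference -1.58 ± 0.14, adjusted p = 0.00335). Mgat5, a Golgi N-acetylglucosaminyltransferase, went from 0.775, 0.851 and 0.975 to 0.435, 0.43 and 0.574 in membrane and from 0.772, 0.852 and 0.826 to 1.52, 1.53 and 1.29 in cytosol (-1.68 ± 0.19, adjusted p = 0.00818). The ceramide synthase Cers6 (-1.84 ± 0.22, adjusted p = 0.0115), the bicarbonate transporter Slc4a7 (-1.40 ± 0.35, adjusted p = 0.0428) and the adaptor Pag1 (-2.14 ± 0.50, adjusted p = 0.0378) had differences of the same sign, but Pag1 had 3.67 and 4.33 implied reads in cytosol.

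Kcnq1ot1, a nuclear antisense RNA, had the largest difference of these (-2.34 ± 0.26, adjusted p = 0.00818), with 1.81, 2.07 and 1.63 and then 0.449, 0.324 and 0.474 in membrane and 1.26, 1.91 and 1.44 and then 1.84, 1.7 and 1.62 in cytosol. It overlaps Kcnq1 on the other strand. The library kit keeps strand, but the strand setting of the count is not named for these libraries in the sources used here, and without strand the reads of both cannot be told apart.

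Genes that fell less in membrane included ER-translated cargo, but enrichment on membranes did not set them apart. Membrane over cytosol at 60 min was 14.15 for Ggcx and 22.7 for Neu1, and 14.35 for Abhd2 and 14.57 for Cers6, which fell more. Neu1, Ggcx and Reck here and Klf6 below were named after their values were seen. Tfrc, the transferrin receptor, which was named because the study uses it as an example, was at 0.94, 1.03 and 1.04 and then 0.80, 0.827 and 0.955 in membrane and at 0.658, 0.675 and 0.771 and then 0.33, 0.296 and 0.279 in cytosol (0.99 ± 0.16, adjusted p = 0.0168). Its groups overlapped in membrane and did not in cytosol. Neu1, the lysosomal sialidase, was at 1.11, 0.974 and 1.15 and then 0.974, 1.05 and 1.03 in membrane and at 0.712, 0.619 and 0.929 and then 0.286, 0.27 and 0.265 in cytosol (1.36 ± 0.20, adjusted p = 0.0147), on 37 implied reads there at 30 min. Ggcx, the ER γ-carboxylase (1.58 ± 0.28, adjusted p = 0.0193), and Reck, a GPI-anchored protease inhibitor (1.75 ± 0.43, adjusted p = 0.0419), differed in the same way.

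The largest differences of this sign, in the lysosomal channel Tpcn2 (2.31 ± 0.34, adjusted p = 0.0147), the amyloid precursor-like protein Aplp2 (2.29 ± 0.41, adjusted p = 0.0197) and the receptor phosphatase Ptprs (2.21 ± 0.52, adjusted p = 0.0373), rested on means of 5.67 to 10.7 cytosolic implied reads at 30 min. Klf6, a transcription factor that is not ER-translated, fell in membrane by 3.61 (SE 0.26) and further in cytosol (1.37 ± 0.31, adjusted p = 0.035), and Nf1, neurofibromin, named for the same reason as Tfrc, did not pass the test of the difference (0.51 ± 0.16, adjusted p = 0.092).

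**Figure D5:**
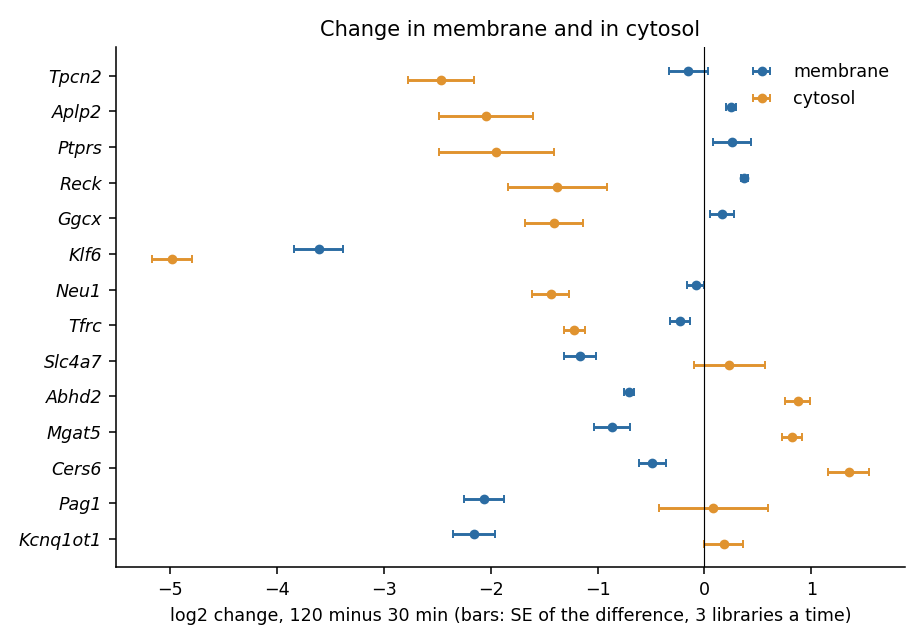
Log2 change from 30 to 120 min in the membrane fraction and the cytosol for 14 genes, ordered by the difference. They passed limma's interaction test in the fit without a block, and none passed with same-numbered libraries of a time as a block. Points are mean changes, bars are the SE of each change from the SDs of 3 libraries a time, and the membrane minus cytosol differences run from -2.34 for Kcnq1ot1 to 2.31 for Tpcn2.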

How the data were processed

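PolyA RNA of fractions of E14TG2a cells was sequenced as stranded mRNA libraries. The authors, per the labels and their methods, mapped reads to mm10 (GRCm38) with STAR 2.7.6, counted genes with RSEM 1.3.3, scaled libraries on genes with long half-lives and divided by 0 min; the 0 min libraries were not analysed here. The deposited values are thus ratios, which contain no absolute level. Scaling on long-lived genes sets where 0 lies in every log2 change. Whole reads behind the ratios were recovered with a relative tolerance of 1e-10.

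Genes listed in all 6 libraries were fitted on log2 ratios, with no pseudocount, by limma 3.58.1 (R 4.3.3, empirical Bayes with trend, two-sided, Benjamini-Hochberg adjustment over all genes tested, threshold 0.05), after a test on simulated data. The interaction with cytosol used 12 libraries. The labels call the replicates independently passaged cultures. Alternatives were other scalings, filters, a pseudocount of 0.1, blocks, limma-voom on implied reads and leaving out each library. Gene names and coordinates came from the GRCm38 annotation.

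Members and gene lists were chosen with earlier results of these data known. Genes named were the 12 largest falls and 8 largest rises among called genes with non-overlapping groups listed in all 48 libraries (predicted genes and pseudogenes left out), the leading members of each list, the largest differences from cytosol, and Tfrc and Nf1, examples in the study. The differences from cytosol were taken under like filters, with every membrane change over pairings of libraries beyond every cytosolic one. Genes named otherwise are said to be. Protocol text gives another last time than titles, and titles were followed.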

Additional observations from a re-analysis of the deposited data

Results flagged for a closer look

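The change from 30 to 120 min differed between the membrane fraction and the cytosol for the following genes by limma's interaction test. Only genes were taken in which every membrane change over pairings of libraries lay beyond every cytosolic one, so that this separation comes from the choice. All differences are on the log2 scale, membrane minus cytosol, and rest on the fit without a block (with same-numbered libraries of a time as a block, 0 and 1 genes were called).

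Genes with a larger fall, or a smaller rise, in membrane were Kcnq1ot1 (-2.34), the ubiquitin-associated protein Ubap2l (-2.34), the calcium-binding protein Cabp4 (-2.27), the aldehyde dehydrogenase Aldh3b1 (-2.26), Pag1 (-2.14), Farp2 (-1.89), Cers6 (-1.84), Mgat5 (-1.68), Abhd2 (-1.58), Slc4a7 (-1.40) and the palmitoyltransferase Zdhhc15 (-1.34). Ubap2l was at 1.0 implied read and Cabp4 at 3.0 implied reads in membrane at 120 min.

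Genes with a smaller fall, or a larger rise, in membrane were Tpcn2 (2.31), Aplp2 (2.29), Ptprs (2.21), the oviduct glycoprotein Ovgp1 (2.11), the proteoglycan brevican Bcan (2.09), the receptor phosphatase Ptpru (1.84), Reck (1.75), the zinc finger genes Zfp97 (1.65) and Zfp960 (1.58), Ggcx (1.58), Klf6 (1.37) and Neu1 (1.36). Ovgp1 had 3.33 and 5.0 implied reads at 30 min in membrane and cytosol. Of these, Cers6, Mgat5, Abhd2, Slc4a7, Zdhhc15, Reck, Zfp97, Zfp960, Ggcx, Klf6 and Neu1 were named after their values were seen, for their larger read numbers.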

How the results depend on the processing

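The number of calls in each direction depends on how libraries were scaled. The numbers of genes that fell and rose were 6913 and 265 as deposited, 2406 and 2337 with libraries centred on their median gene, 3036 and 1670 with libraries scaled to the same sum, and 11040 and 24 under a scaling to mt-encoded mRNAs. The median change was then 0.00 (0.0037), -0.12 and -1.31, against -0.62 as deposited and -0.54 with a pseudocount of 0.1. Under the scaling to mt-encoded mRNAs the changes of Ero1l (-0.32), Canx (-0.39), P4hb (-0.69), Npc2 (-0.29), Igf2r (-0.23), Sfrp1 (-0.68), Gpc3 (-0.18), Fn1 (-0.19), Glb1 (-0.092), Hexa (-0.15), Dppa5a (-0.65), Slc7a5 (-0.19), Slc16a1 (-0.68), mt-Nd1 (-0.17), Rps20 (-0.19), Aplp2 (-0.44), Ptprs (-0.43), Bcan (-0.66), Reck (-0.31) and Ggcx (-0.52) turned negative. With libraries centred those of Srf (0.45), Ptpru (0.56), Tfrc (0.40), Nf1 (0.49), Tpcn2 (0.47), Cers6 (0.14), Zdhhc15 (0.33) and Neu1 (0.54) turned positive, and with the same sum those of Srf (0.33), Ptpru (0.43), Tfrc (0.27), Nf1 (0.36), Tpcn2 (0.35), Cers6 (0.012), Zdhhc15 (0.20) and Neu1 (0.42). Other settings kept both counts within 1.5 times: leaving out each library gave 5749 to 6576 that fell and 194 to 265 that rose, and a fit with the replicate number as a block gave 6373 and 222. Same-numbered libraries at 30 and 120 min did not deviate together (correlations of 0.081, -0.122 and 0.009 over 8864 genes), so the number was not taken to pair them.

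Offsets of list medians from all genes kept their direction except for the receptor and ligand lists with genes listed in all 48 libraries (0.030 and 0.11) and for nuclear noncoding RNAs with at least 20 implied reads (0.57). With genes listed in all 48 libraries the offsets of vesicle coats (0.016), pluripotency factors (-0.53), nuclear noncoding RNAs (-0.043), differentiated and feeder markers (-1.02), Tmem genes (0.15) and mt-encoded mRNAs (1.16) moved by more than the spread of libraries. With a pseudocount of 0.1, which shrinks low ratios, so did those of ER chaperones (0.47), lysosomal proteins (0.70), pluripotency factors (-0.54), immediate early genes (-1.28, against -2.04), differentiated and feeder markers (-0.67), mt-encoded mRNAs (1.19) and Zfp genes (-0.87), and with at least 20 implied reads those of the translocon list (0.41) and Tmem genes (0.16).

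The comparison with cytosol was the least stable. Against 619 genes that fell more in membrane and 218 that fell less, leaving out 1 library gave 38 to 902 and 23 to 187, with the lowest counts without replicate 2 (38 and 23) or 3 (96 and 57) of membrane at 30 min or replicate 2 of cytosol at 30 min (58 and 32). The replicate number as a block gave 353 that fell more, and number and time together as a block 0 and 1. Libraries of the same number and time in both fractions deviated together at 30 min (correlations of 0.336, 0.193 and 0.110) and less so at 120 min (0.078, 0.069 and 0.063). All correlated best with their own number except cytosol replicate 3 at 30 min, which correlated at 0.124 with membrane replicate 2. Genes with at least 20 implied reads gave 995 and 355, limma-voom on implied reads 1230 and 402, scaling to mt-encoded mRNAs 5548 and 23, and centring 550 that fell less. The cause of these shifts was not tested.

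Calls of single genes lost in 5 or more settings were those of Canx (10 settings), Ero1l (8), Tcf12 (7), Zdhhc15 (6), mt-Nd1 (5), mt-Co2 (5) and Clasp1 (5), and for the difference from cytosol those of Klf6 (14), Reck (13), Slc4a7 (12), Pag1 (11), Ubap2l (11), Ovgp1 (11), Ptprs (10), Cabp4 (10), Farp2 (8) and Ptpru (5). The planned classes by hydrophobic segments of the encoded protein were not run, since protein sequences were not used here. limma-voom and the minimum of 20 implied reads were chosen after seeing the data. Intervals and floors of genes with few reads were not computed, and at such depth a change that did not pass the test was not detectable rather than absent.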
